A study of Mus musculus with 4 samples.

Results

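Pi16 Scara5 fibroblast nuclei are nuclei of mouse heart that carry fibroblast transcripts together with 5 genes linked to fibroblasts of the vessel adventitia. They numbered 2363 of the 27048 nuclei kept by the nucleus filter, or 8.736%, out of 39696 deposited barcodes. A kept nucleus had at least 500 UMIs (unique molecular identifiers, each standing for 1 captured RNA molecule), at least 300 genes and under 5% mitochondrial UMIs. Ttn, Ryr2 and Myh6, which are cardiomyocyte transcripts, had to make up under 3% of its UMIs. A member then had at least 3 UMIs over Pdgfra, Dcn, Abca8a and Bicc1, and no more than 1 over Cdh5, Pdgfrb and Mrc1. It also had at least 2 UMIs over Gfpt2, Adgrd1, Scara5, Pi16 and Pcsk6 (set C), and more of these than of Smoc2, Hmcn2, Gfra1, Rgs17 and Htra3 (set A) or of Sntg1, Ccbe1, Nkain3, Thsd7b and Vit (set B). The nuclei were thus chosen by measured transcripts of these samples, so their levels of these genes, and any contrast with other fibroblast nuclei, are a description with no test.

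The 4 libraries were whole hearts of wild-type C57BL/6J males, 1 heart each, read as nuclei by droplet sequencing. In the 2 injured-father libraries the offspring came from fathers whose hearts had been injured, and in the 2 uninjured-father libraries from fathers that had not been injured. Every offspring heart, in both groups, had itself been injured 1 day after birth and was collected 21 days after that injury. No uninjured heart is among these samples, the labels used here do not say which litter or father a heart came from, and they name a sort with a Ter119 antibody, which binds red blood cells.

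The adventitia is the outer coat of arteries and veins, a sleeve of collagen, elastic microfibrils, nerves and small vessels. Fibroblasts marked by Pi16, a secreted peptidase inhibitor, and by Dpp4, a membrane peptidase, lie in this coat and around other tissue borders in many organs, and are described in mouse as a reserve from which more specialised fibroblasts can arise. They are known for hyaluronan synthesis and for microfibril proteins such as Mfap5.

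Members numbered 537 and 705 in injured-father libraries 1 and 2, and 636 and 485 in uninjured-father libraries 1 and 2. Their median depth was 2728 and 3075 UMIs with injured fathers, against 2773 and 2010 with uninjured fathers, so uninjured-father library 2 was the shallowest. The summed UMIs were 1739344 and 2470415 against 2044270 and 1167759. Scrublet, which marks likely doublets (2 nuclei under 1 barcode), marked 10.4% and 10.1% of members in the injured-father libraries and 7.08% and 12.2% in the uninjured-father libraries. No barcode was shared between libraries among members, and 13 to 18 were shared between any 2 libraries among all kept nuclei.

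The 5 genes of the rule describe the choice and are no finding. In CPM (UMIs of a gene per 1000000 UMIs of the nuclei summed), Pi16 stood at 278 and 353 in injured-father members and at 305 and 366 in uninjured-father members. In the other fibroblast nuclei, those that passed the same fibroblast gate but were not members, it was at 51.2 and 61.0 CPM with injured fathers, against 52.2 and 68.3 CPM with uninjured fathers. Pi16 (ENSMUSG00000024011) lies on chromosome 17 from 29317680 to 29330593 on the + strand of GRCm38. Pooled over libraries, Gfpt2, which starts the hexosamine pathway, was at 722 CPM in members and 97.5 CPM in other fibroblast nuclei. Adgrd1, an adhesion receptor, was at 390 against 73.0 CPM, Scara5, a ferritin receptor, at 518 against 157 CPM, and Pcsk6, a proprotein convertase, at 1794 against 543 CPM. Pcsk6 alone supplied all the set C UMIs of 282 members, or 11.9%. With Pcsk6 taken out of set C, 252 of 537 and 316 of 705 members stayed in injured-father libraries 1 and 2. In uninjured-father libraries 1 and 2, 289 of 636 and 185 of 485 stayed.

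Dcn and Pdgfra, the general fibroblast genes of the gate, were at like levels in members and the other fibroblast nuclei. Dcn, a collagen-binding proteoglycan, was at 1471 against 1382 CPM pooled and was higher in 3 of 4 libraries. Pdgfra, a receptor of platelet-derived growth factor, was at 452 against 410 CPM and was also higher in 3 of 4.

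Genes of adventitial fibroblasts that the rule did not use went with the members. Of the 12598 genes with at least 50 UMIs over both populations, 1743 (13.8%) were higher in members than in other fibroblast nuclei in 4 of 4 libraries and 1964 (15.6%) were lower in 4 of 4. Of the 39 adventitial markers in the files, 34 were outside the rule, 33 had enough UMIs, 28 were higher in 4 of 4 libraries and 0 were lower in 4 of 4. Their median log2 difference was 0.77, against 0.002 over all genes. The rule chose the nuclei within this same contrast, so these counts describe them and test nothing.

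Mfap5, a protein of elastic microfibrils, was at 402 and 394 CPM in injured-father members and 477 and 429 CPM in uninjured-father members. In the other fibroblast nuclei it was at 165 and 170 CPM with injured fathers, against 191 and 191 CPM with uninjured fathers. Every member value lay above every value of the other nuclei, and the same held for the genes of the next paragraph.

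Cd248 (endosialin, on chromosome 19 from 5068078 to 5070682), a surface protein of stromal cells, was at 89.1, 68.8, 89.5 and 67.7 CPM in members of the injured-father libraries 1 and 2 and the uninjured-father libraries 1 and 2. In other fibroblast nuclei of the same libraries it was at 14, 11.04, 15.4 and 20.4 CPM. Sema3c, a secreted semaphorin, was at 383, 276, 390 and 346 CPM in members and 114, 108, 96.7 and 92.7 CPM in the others. Adamtsl3, a matrix protein of the ADAMTS-like family, was at 694 against 259 CPM pooled, and Ret, a receptor kinase for glial-derived growth factors, at 137 against 48.1 CPM. Efhd1, a calcium-binding protein of mitochondria, had the largest pooled difference of the genes outside the rule, with 75.7 against 8.54 CPM (log2 1.75 with 20 CPM added to both). Pla1a, a phospholipase that acts on phosphatidylserine, was at 126 against 36.0 CPM pooled. Ackr3, a scavenger receptor of the chemokine Cxcl12, was at 213 against 70.7 CPM, and Axl, a receptor kinase, at 556 against 261 CPM. Cd55, which limits complement, was at 189 against 82.3 CPM. Dpp4 was at 114, 129, 71.9 and 61.7 CPM in members and 46.6, 50.9, 35.3 and 26.7 CPM in the others, so that it was higher in 4 of 4 libraries.

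**Figure D1:**
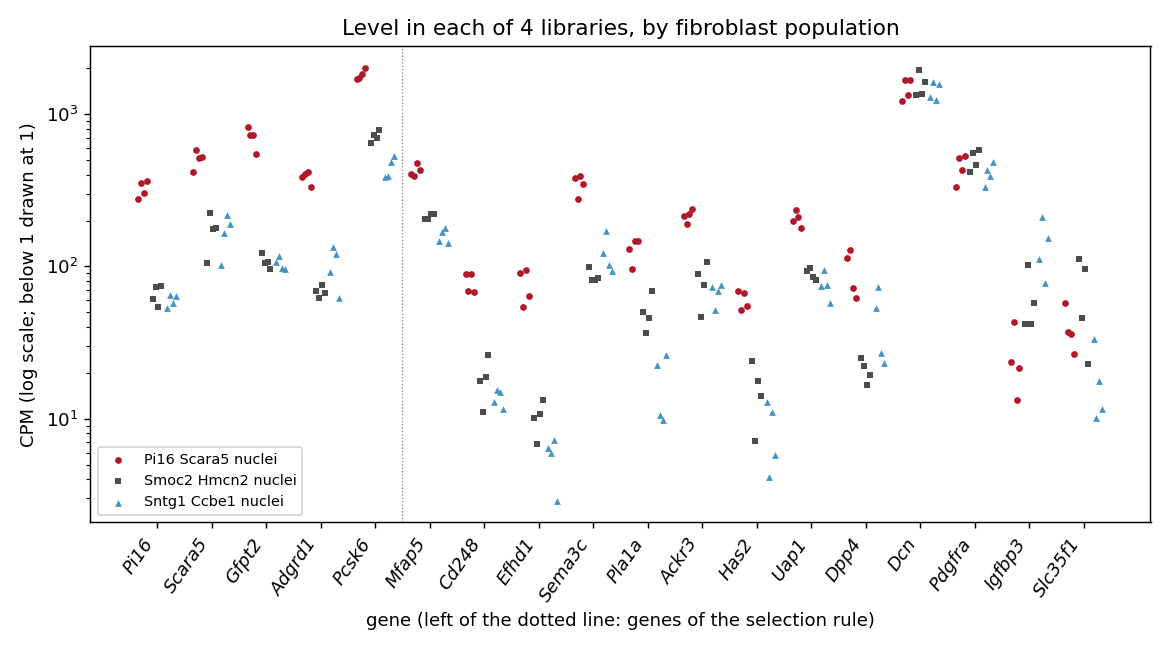
CPM on a log axis for 18 genes, with 1 point per library, in Pi16 Scara5 nuclei (circles), Smoc2 Hmcn2 nuclei (set A, squares) and Sntg1 Ccbe1 nuclei (set B, triangles). Mfap5, Cd248, Efhd1 and Has2 lie higher in Pi16 Scara5 nuclei, while Dcn and Pdgfra overlap between the populations.

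Genes for hyaluronan, a sugar polymer of loose matrix, were among those higher in members. Of 18 genes outside the rule in this list with enough UMIs, 8 were higher in 4 of 4 libraries and 1, Cemip2, was lower. Has2, a hyaluronan synthase, was at 68.4, 51.4, 66.5 and 54.8 CPM in members and 17.2, 5.77, 16.1 and 12.2 CPM in the others. Ugdh, which makes UDP-glucuronic acid, was at 155 against 56.1 CPM pooled. Uap1, which makes UDP-N-acetylglucosamine, was at 211 against 81.1 CPM, and Vcan, a proteoglycan that binds hyaluronan, at 299.9 against 190 CPM. Gfpt2, of the same pathway, was used by the rule.

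Elastic fibre genes differed in both directions. Of 22, 8 were higher in members in 4 of 4 libraries and 6 were lower. Fbn1, the fibrillin of adult microfibrils, was at 994.8 against 619 CPM, and Emilin2, a glycoprotein of elastic tissue, at 64.4 against 19.6 CPM. Efemp1, a fibulin, was at 66.8 against 21.1 CPM, and stood at 1480 CPM in the mesothelial-like cluster described later. Eln, elastin itself, was at 458 against 639 CPM and Fbn2, a second fibrillin, at 102 against 210 CPM. For Fbn2 the members lay below the others in every library, at 65.5, 102, 119 and 127 CPM against 165, 216, 210 and 262 CPM.

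Of 28 fibrillar collagen and assembly genes outside the rule, 14 were higher in 4 of 4 libraries and 2 lower, with a median log2 difference of 0.08. Col14a1, a collagen that sits on fibrils, was at 333 against 252 CPM and Pcolce2, which aids procollagen cutting, at 220 against 138 CPM. Basement membrane genes split, with 6 of 19 higher and 7 lower. Lamc1, a laminin chain, was at 1676 against 1186 CPM, and the type IV collagen genes Col4a1 and Col4a2 were lower at 489 against 543 and 296 against 363 CPM. Of 17 myofibroblast and scar genes, 2 were higher in 4 of 4 libraries (Fn1 and Thbs4) and 6 were lower.

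Immediate early and heat shock genes were higher in 4 of 4 libraries for 12 of 25 and lower for 0. Klf4, a transcription factor, was at 55.2, 100, 65.1 and 89.9 CPM in members and 34.4, 50.1, 24.6 and 37.3 CPM in the others. The members were also the deeper nuclei, with medians of 2728, 3075, 2773 and 2010 UMIs against 2128, 2474, 2324 and 1730 UMIs in the others. The part of depth in these differences was not tested.

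The genes furthest below the other fibroblast nuclei included markers of other cell types. Slc35f1 was at 40.02 against 125 CPM, with 4539 CPM in the Schwann- or glial-like cluster described later, and Abcc9, a pericyte potassium channel subunit, was at 86.6 against 207 CPM. Of 9 mural markers 8 were lower in 4 of 4 libraries, and so were 10 of 11 vascular endothelial and 6 of 7 endocardial markers. Lymphatic endothelial markers went the other way, with 4 of 7 higher in 4 of 4 libraries, 0 lower, and a sum of 157 against 104 CPM. Mesothelial markers summed to 214 against 143 CPM. In the members of the fibroblast clusters described later, both sums lay below those of the other fibroblast nuclei, at 70.4 CPM for lymphatic and 14.2 CPM for mesothelial markers. The lymphatic sum was 443 CPM in the endothelial-led cluster 3, and the mesothelial sum 8469 CPM in the mesothelial-like cluster 5. Igfbp3, which binds insulin-like growth factors, was at 27.0 CPM in members, 63.6 CPM in set A nuclei and 140 CPM in set B nuclei.

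Near the threshold Mfap5 was lower. Nuclei with 1 set C UMI, just outside the rule (221 nuclei), had Mfap5 at 133 ± 24.5 CPM (SD over 4 libraries), and members with 2 (178 nuclei) at 187 ± 23.8 CPM. Members with 7 or more (1491 nuclei) had 495 ± 34.5 CPM. Dpp4 did not follow this, at 135 ± 14 CPM with 1 UMI, 105 ± 82.6 CPM with 2 and 98.1 ± 19.9 CPM with 7 or more. Npr3, an endocardial gene, ran the other way, at 1250 ± 746 CPM with 1 UMI, 673 ± 663 CPM with 2 and 121 ± 51.8 CPM with 7 or more. Depth moved with this, since the median was 2001, 1795.5 and 3144 UMIs in these 3 groups. Nuclei with 2 UMIs of the fibroblast genes, just outside the gate (107 nuclei), had Mfap5 at 227 CPM, and members with 3 (106 nuclei) at 383 CPM.

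**Figure D2:**
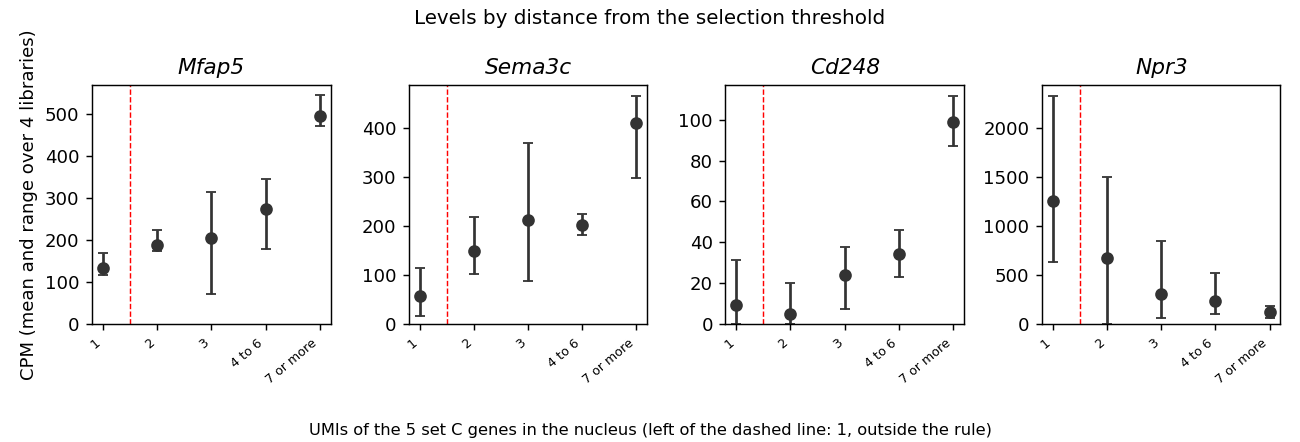
CPM of Mfap5, Sema3c, Cd248 and Npr3 against the set C UMIs of the nucleus, as the mean (point) and range (bar) over the 4 libraries. Mfap5 rises to 495 CPM at 7 or more UMIs while Npr3 falls to 121 CPM.

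Clustering of the members alone gave 8 clusters, of which clusters 1, 2 and 4, with 1986 nuclei (84.1%), were grouped as fibroblast clusters after they were seen. None of the top 10 genes of these 3 clusters was on a list of endothelial, mural, mesothelial, glial or adipocyte markers, and Dcn was at 1749, 1694 and 1215 CPM in them. None of the top 10 genes of cluster 2 was on a fibroblast list. All genes of these nuclei shaped the clusters, so what follows describes them. Cluster 1 (926 nuclei, 39.2%) was led by Cd248, Pla1a, Pi16, Has2, Gfpt2 and Efhd1 and is adventitial fibroblast-like. Mfap5 was at 662 CPM there, above the 245 CPM of cluster 2. The 34 adventitial markers outside the rule summed to between 10470 and 11850 CPM over its libraries. Pooled, they summed to 11160 CPM there and 7909 CPM in cluster 4. They reached 11630 CPM in the 30 nuclei of the mesothelial-like cluster 5 described below, where Igfbp5 alone was at 3979 CPM. The lists of parenchymal and general fibroblast markers were highest in cluster 1. The myofibroblast and scar list was highest in cluster 4, at 2388 against 1077 CPM in cluster 1. The 18 markers of parenchymal (tissue-interior) fibroblasts outside the rule summed to 9560 CPM, against 6911 CPM in the fibroblast nuclei that were not members. For 9 general fibroblast markers the sums were 6928 against 4197 CPM.

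Cluster 2 (810 nuclei, 34.3%) was led by Grm8, Fat3, Bmper and Adap2 and was left unnamed. Pcsk6 was nearly as high there as in cluster 1, at 2146 against 2243 CPM. Pi16 was at 114 against 568 CPM, Cd248 at 18.5 against 165 CPM and Has2 at 10.2 against 117 CPM. Bmper, a secreted regulator of BMP signals, was at 594 CPM in cluster 2 and 183 CPM in cluster 1. Its 34 adventitial markers summed to 4737 CPM pooled, against 4161 CPM in the fibroblast nuclei that were not members. The label of adventitial fibroblasts therefore describes cluster 1 and goes against cluster 2.

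Cluster 4 (250 nuclei, 10.6%) was led by Opcml, Thbs4, Aff2, Tmeff2 and Postn and was also left unnamed. Thbs4, a matrix thrombospondin, was at 187 CPM in cluster 4 and 13.3 CPM in cluster 1, and Postn, a matrix protein of scar and valve, at 547 against 192 CPM. Pi16 was at 333 CPM there, between its levels in clusters 1 and 2. Dkk3, also in the top 10 genes of cluster 4, is on the list of valve interstitial markers. The 10 genes of that list summed to 286 CPM in cluster 4, against 137 CPM in cluster 1. Most of the sum in cluster 4 was Dkk3 itself, at 195 CPM there against 47.1 CPM in the rest of the members.

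The other 377 members lay in clusters led by genes of other cell types. Cluster 3 (306 nuclei) was led by Emcn, Npr3, Vwf, Flt1 and Pecam1, which are endothelial or endocardial, and still held Dcn at 961 CPM. Its median depth was 4727 UMIs and Scrublet marked 56.9% of it as doublets, so it was left unnamed. Cluster 5 (30 nuclei) was mesothelial-like, with Muc16 and Upk3b, genes of the outer lining of the heart, Pi16 at 7.29 CPM and Mfap5 at 0 UMIs. Cluster 6 (16 nuclei) was Schwann- or glial-like with Cadm2 and Kcna1, and cluster 8 (10 nuclei) mural-like with Abcc9, Rgs5 and Notch3. Cluster 7 (15 nuclei) was led by Car3, Pparg, Nrg4 and Ppara, and the adipocyte markers summed to 5814 CPM there against 231 CPM in cluster 1. Its median depth was 5507 UMIs, above that of cluster 3, and Scrublet marked 6 of its 15 nuclei as doublets. Cluster 7 was not named as a cell type.

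**Figure D3:**
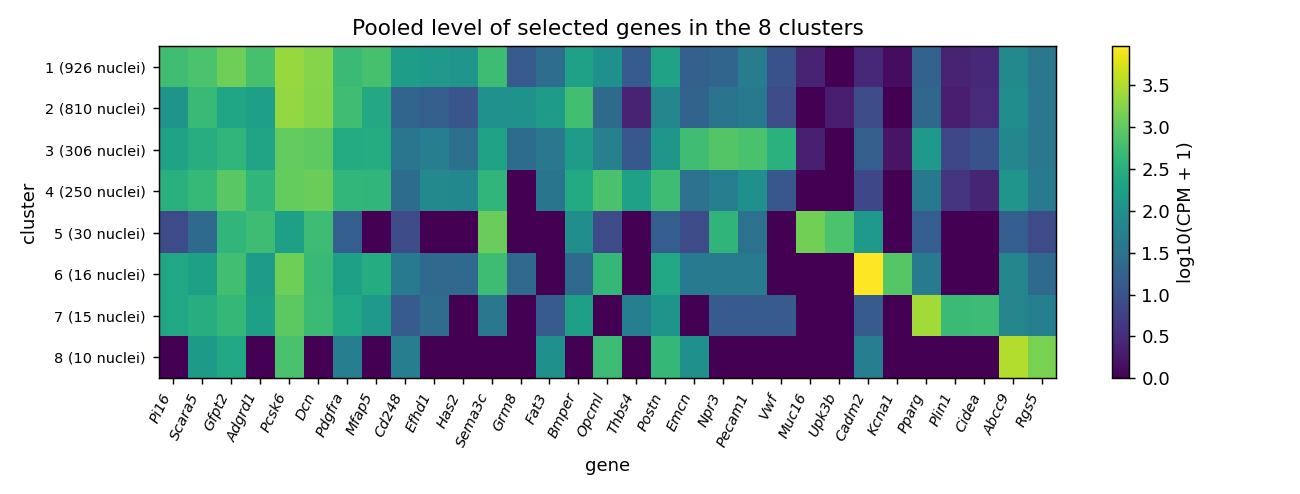
Pooled level, as log10(CPM + 1), of 31 genes (columns) in the 8 clusters of Pi16 Scara5 nuclei (rows). Cluster 1 holds Cd248, Efhd1 and Has2 together, cluster 2 holds Pcsk6 with little Pi16, and clusters 3 and 5 to 8 hold genes of other cell types.

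Cluster 1 held 42.8% and 33.8% of the members in injured-father libraries 1 and 2, and 41.4% and 40.2% in uninjured-father libraries 1 and 2. Cluster 2 held 26.4% and 34.9% against 35.4% and 40.6%, and cluster 4 held 13.4% and 12.2% against 9.12% and 7.01%. Cluster 3 held 13.04% and 14.04% against 12.9% and 11.3%. The mesothelial-like cluster 5 had 7 and 20 nuclei with injured fathers, against 3 and 0 with uninjured fathers. Cluster 7 had 8 and 6 nuclei with injured fathers, against 0 and 1 with uninjured fathers. Cluster 6 had 4 and 6 nuclei against 4 and 2, and cluster 8 had 4 and 4 against 1 and 1. By their shares of members the 2 groups overlapped in cluster 1 alone. With 2 libraries a group such a separation carries little weight, and the shares within a library depend on one another. Clusters 5 to 8 rest on few nuclei, and the shares of clusters were not tested.

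**Figure D4:**
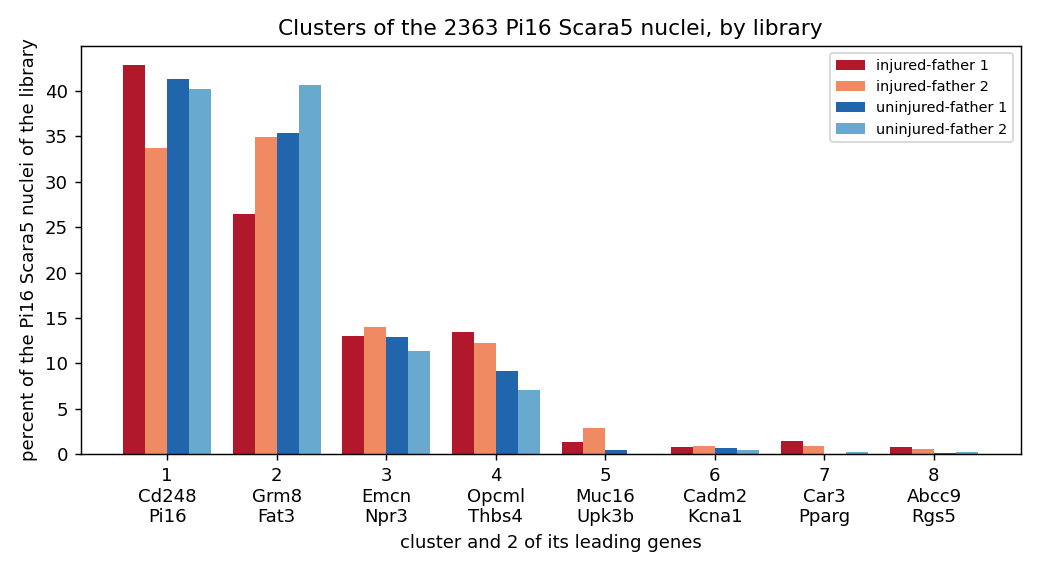
Percent of each library's Pi16 Scara5 nuclei (bars, vertical axis) in the 8 clusters (horizontal axis), with injured-father libraries 1 and 2 left of uninjured-father libraries 1 and 2. Clusters 1 and 2 hold most nuclei of each library, and cluster 4 is larger in both injured-father libraries.

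The share of members among the kept nuclei showed no difference by the father beyond the spread between hearts. It was 7.76% (95% Wilson interval 7.15 to 8.41, counting error only) and 9.22% (8.60 to 9.89) with injured fathers, and 8.96% (8.32 to 9.65) and 9.01% (8.27 to 9.80) with uninjured fathers. The groups overlapped, at 8.49% ± 1.04 against 8.98% ± 0.0318 (SD, n = 2 each). The log2 fold change was -0.08 with a standard error of 0.12 (edgeR quasi-likelihood test over 5 classes of nuclei, adjusted p = 0.666). The exact two-sided permutation test over libraries gave p = 1.0, and 0.33 is the smallest it can give with 2 libraries a group. Without injured-father library 2 the share passed the threshold as lower (log2 -0.21, adjusted p = 0.0298, edgeR), and without injured-father library 1 the value turned to 0.04. Of the fibroblast nuclei, members were 24.3% and 25.2% with injured fathers, against 23.8% and 24.4% with uninjured fathers.

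The comparison by the father asks whether these nuclei differ in an injured heart according to an earlier injury of the father's heart. Of 10805 genes tested in the summed members, 20 (0.185%) were higher with injured fathers and 0 (0%) were lower (edgeR quasi-likelihood test, adjusted p under 0.05). At an unadjusted p under 0.05, 333 were higher and 223 lower, and DESeq2 and limma-voom also called 0 lower. All 20 were higher in each injured-father library than in either uninjured-father library, which adds no support since these same values gave the calls. They comprised a kinase gene (Camk1d), fat-cell genes (Pparg, Plin1, Cidea), a mesothelial gene (Upk3b) and genes carried mostly by the endothelial-led cluster 3 (Kcnc2, Col25a1). The count rested on single libraries: it was 88 higher and 12 lower without injured-father library 1, and 55 higher and 15 lower without injured-father library 2. It was 4 higher without uninjured-father library 1 and 1 without uninjured-father library 2, with 0 lower in both.

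Camk1d (ENSMUSG00000039145, chromosome 2 from 5293457 to 5714515, - strand), a calcium- and calmodulin-dependent kinase, was at 7965 and 7941 CPM in injured-father members. It was at 3672 and 3270 CPM in uninjured-father members. The groups stood well apart, with a log2 fold change of 1.21 and a standard error of 0.14 (edgeR, adjusted p = 0.00569). Without uninjured-father library 2 it did not pass (log2 1.10, adjusted p = 0.0841, edgeR), and Pparg was the 1 gene that did. The other fibroblast nuclei showed nearly the same values, at 7662 and 6787 CPM with injured fathers, against 3308 and 3167 CPM with uninjured fathers, and the difference between the populations in this fold was 0.03 (edgeR interaction, adjusted p = 0.998). Lars2, the leucyl-tRNA synthetase of mitochondria, was at 1308 and 1271 CPM against 737 and 746 CPM (log2 0.81, SE 0.13, adjusted p = 0.0202, edgeR). It too was as different in the other fibroblast nuclei, at 1340 and 1111 against 795 and 667 CPM. Of the list of 8 genes that an earlier look at these data had found to move in many nucleus types, Camk1d and Lars2 passed here. Cdk8, Cmss1, Gphn, Car3 and Slc15a2 did not, with log2 fold changes of 0.33, 0.42, 0.32, 3.03 and 4.94. Sntg1 is a set B gene of the rule, so its value of 0.63 is a description. Slc15a2, a peptide transporter, had 28 and 19 UMIs with injured fathers, against 1 and 0 with uninjured fathers (ratio 35.9, 95% counting interval 6.13 to 1450, adjusted p = 0.0537, edgeR).

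Of the called genes, Plin1 and Cidea are on the adipocyte list and Pparg on the list of fat-cell commitment. Pparg, the nuclear receptor that drives fat-cell formation, was at 113 and 98.8 CPM in injured-father members and 27.4 and 37.7 CPM in uninjured-father members (log2 1.75, SE 0.20, adjusted p = 0.00569, edgeR). Plin1, a coat protein of lipid droplets, had 18 and 39 UMIs against 1 and 0 (ratio 43.5, interval 7.50 to 1750, counting error at 95%). Cidea, another lipid droplet protein, had 33 and 30 UMIs against 2 and 0 (ratio 24.0, interval 6.38 to 203). These low-count genes passed the filter through the injured-father libraries. Nrg4, Acsl1 and Pcx are on neither list and are placed here after their values were seen. Nrg4, a secreted growth factor of fat cells, was at 29.9 and 23.5 CPM against 4.89 and 1.71 CPM. Acsl1, which activates long-chain fatty acids, was at 104 and 120 CPM against 52.3 and 42.0 CPM, and Pcx, pyruvate carboxylase, at 40.8 and 47.0 against 10.8 and 15.4 CPM. Of the adipocyte list, 9 of 11 genes were tested, 2 rose (Plin1 and Cidea), and the median log2 fold change was 1.59 against 0.002 over all genes. Plin1 and Cidea entered this median through the injured-father libraries, so it is a description and tests nothing. In the fibroblast clusters 4 genes of the list were in the fit, with a median of 0.55 and 0 calls.

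The clusters carried these genes unevenly. The 15 nuclei of cluster 7 held 69.0% of the Plin1 UMIs of all members, 63.1% of Cidea, 57.4% of Nrg4, 40.1% of Pcx, 38.6% of Pparg and 30.7% of Acsl1. Scrublet marked 6 of these 15 nuclei as doublets. The endothelial-led cluster 3 held 39.9% of Pparg, and the fibroblast clusters held 20.7% of Pparg, 39.2% of Pcx and 42.97% of Acsl1. Adipoq, an adipokine of fat cells, was at 0.808 CPM over all members, with UMIs in clusters 2 and 7 alone. The 11 adipocyte markers summed to 428 and 315 CPM in injured-father members against 210 and 225 CPM in uninjured-father members. In the fibroblast clusters 1, 2 and 4 the sums were 274 and 211 against 215 and 227 CPM, and the groups overlapped.

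Upk3b, a uroplakin made by mesothelium, had 28 and 68 UMIs in injured-father members and 2 and 0 in uninjured-father members (ratio 36.6, 95% counting interval 9.87 to 307, adjusted p = 0.0135, edgeR). Upk3b too passed the filter on low counts through the injured-father libraries alone. Of these UMIs 97.96% lay in the 30 mesothelial-like nuclei. Igfbp5, which binds insulin-like growth factors and is on the adventitial list, was at 256 and 183 CPM against 84.1 and 63.4 CPM (log2 1.55, SE 0.20, adjusted p = 0.0135, edgeR). Cluster 5 held 47.7% of its UMIs and cluster 3 another 23.1%, and in the fibroblast clusters its log2 fold change was 0.08 (adjusted p = 1.00, edgeR). Of Adam33, a membrane metalloprotease, 53.3% lay in cluster 5. The 11 mesothelial markers summed to 239 and 378 CPM against 106 and 19.7 CPM in all members, and to 15.1 and 18.2 against 13.5 and 6.48 CPM in the fibroblast clusters, where Msln and Lrrn4 were at 0.

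Kcnc2, a voltage-gated potassium channel, was at 78.8 and 123 CPM against 28.4 and 21.4 CPM (log2 2.00, SE 0.26, adjusted p = 0.0135, edgeR). Palmd was at 75.3 and 77.3 CPM against 29.8 and 32.5 CPM. Cluster 3, with its high share of doublets, held 76.0% of the Kcnc2 UMIs, 76.6% of Col25a1 and 54.6% of Palmd. The 7 endocardial markers gave 0 calls (median log2 0.62) and summed to 1486 and 1537 CPM against 1272 and 843 CPM in all members. In the fibroblast clusters they summed to 642 and 683 against 647 and 597 CPM, and their part in these calls was not tested. The other called genes were Rbm47, Slc36a2, Fgf12, Acvr1c, Prkar2b and Gpc3, with log2 fold changes between 1.17 and 3.30.

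With only the 1986 nuclei of the fibroblast clusters, a choice made after these clusters were seen, 1 of 10029 genes was higher (0.00997%) and 0 were lower. That gene was Camk1d, at 8101 and 8061 CPM with injured fathers, against 3716 and 3324 CPM with uninjured fathers (log2 1.21, adjusted p = 0.00367, edgeR). Of the 20 genes called in all members 15 could be tested there, and 14 of them did not pass. Their folds were mostly smaller, as for Pparg with log2 1.07 and Acsl1 with 0.38, and Lars2 stayed at 0.78 (adjusted p = 0.123, edgeR). At an unadjusted p under 0.05 there were 352 genes.

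**Figure D5:**
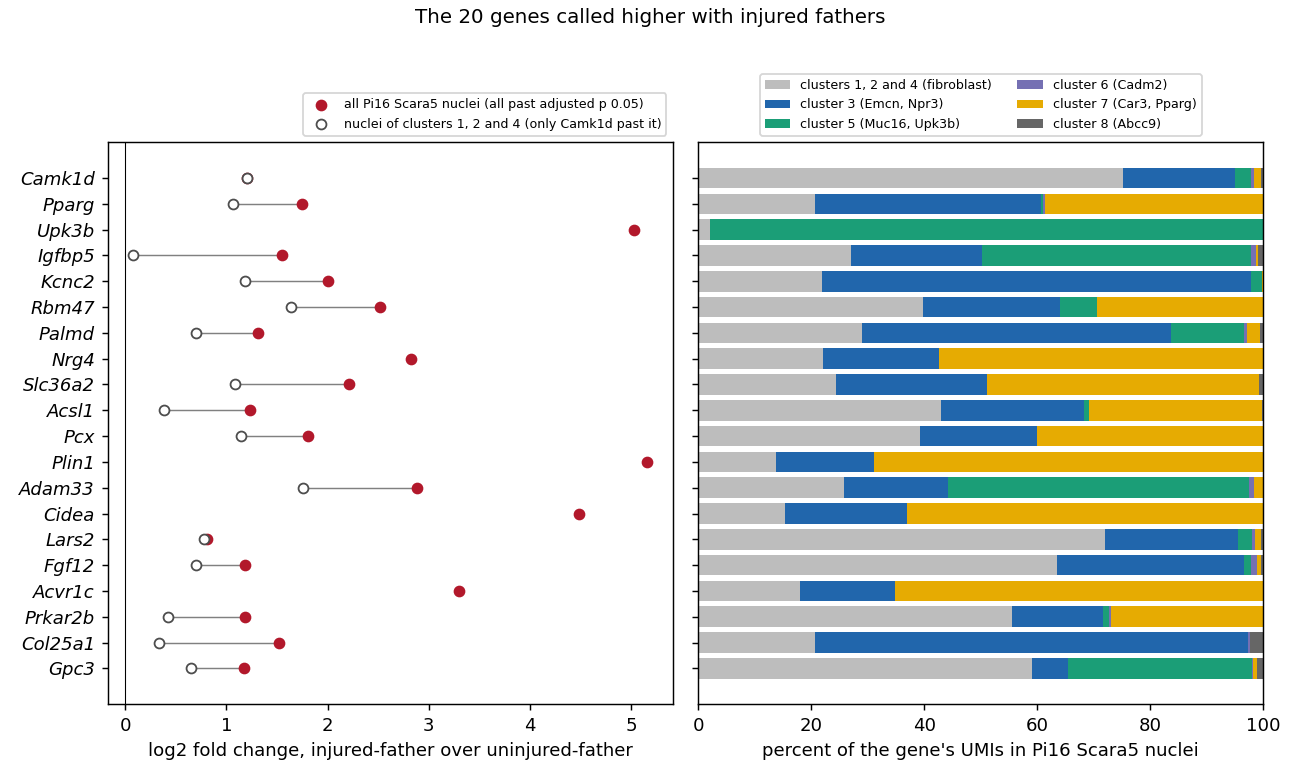
Left, log2 fold change of injured-father over uninjured-father for the 20 called genes in all Pi16 Scara5 nuclei (filled) and in clusters 1, 2 and 4 (open, where tested). Right, percent of each gene's UMIs by cluster, with Upk3b at 97.96% in cluster 5 and Camk1d at 75.2% in the fibroblast clusters.

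The 5 set C genes chose the nuclei in both groups, so their values by the father are a description. The log2 fold change was -0.07 for Pi16, -0.04 for Scara5, 0.28 for Gfpt2, 0.07 for Adgrd1 and -0.15 for Pcsk6. Mfap5, which the rule did not use, gave no call, at -0.18 (SE 0.13, adjusted p = 1.00, edgeR). Of the 36 adventitial genes in the fit, the 5 of set C among them, 1 rose (Igfbp5) and 0 fell. Dpp4 was at 114 and 129 CPM with injured fathers, against 71.9 and 61.7 CPM with uninjured fathers (log2 0.86, SE 0.17, adjusted p = 0.0811, edgeR). Its groups did not overlap, and in the fibroblast clusters its log2 fold change was 0.22, with 1203 CPM in the mesothelial-like cluster 5.

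Collagen and matrix genes had no call either. Of 28 fibrillar collagen and assembly genes in the fit, Dcn of the rule among them, 24 had a negative fold change and 0 passed, with a median of -0.14. The other 4 were positive, and over all genes 5360 of 10805 were negative. This split was not tested. Col3a1 had -0.31, Col6a3 -0.39 and Col5a3 -0.36. Of 18 basement membrane genes tested 12 were negative and 0 passed (median -0.15), of 21 elastic fibre genes 0 passed (median -0.07), and of 16 hyaluronan genes, Gfpt2 of the rule among them, 0 passed (median -0.04). In the fibroblast clusters 19 of the 28 collagen genes were negative, and the collagen median was -0.07. Of 11 complement genes 0 passed (median 0.28), of 22 chemokine and cytokine genes 0 (median 0.19) and of 19 immediate early and heat shock genes 0 (median 0.11).

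The smallest p values among genes lower with injured fathers belonged to Adamtsl2, Col8a1, Fhl2, Insyn2a and Yif1a. Adamtsl2, a matrix protein that binds fibrillin, was at 78.2 and 84.2 CPM in injured-father members and 126 and 196 CPM in uninjured-father members (log2 -0.95, SE 0.19, adjusted p = 0.0969, edgeR). Col8a1, a network-forming collagen, was at 361 and 310 CPM against 480 and 526 CPM (log2 -0.57, SE 0.14, adjusted p = 0.181, edgeR). In the fibroblast clusters these values were -0.90 and -0.52. Fhl2, a muscle-rich LIM protein, was at 534 and 534 CPM against 768 and 751 CPM, with 11 cardiomyocyte markers at 1447 and 2004 CPM in sum against 2169 and 2204 CPM. The log2 fold change of Fhl2 was -0.50 (adjusted p = 0.293, edgeR). It was -0.21 with cardiomyocyte RNA under 1%, -0.26 without Scrublet doublets and -0.22 in the fibroblast clusters. Insyn2a had a log2 fold change of -1.09 and Yif1a, a protein of the early secretory route, of -2.06 (adjusted p = 0.352 and 0.363, edgeR), on few UMIs.

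The difference by the father was then compared between members and the other fibroblast nuclei. Of 12028 genes tested, 1 had a larger fold in members (0.00831%) and 0 a smaller one, and 606 had an unadjusted p under 0.05 (edgeR interaction). The 1 gene was Cadm2, an adhesion protein of nerve and Schwann cells. It was at 92.6 and 100.8 CPM in injured-father members and 34.2 and 8.56 CPM in uninjured-father members, but at 112 and 116 against 127 and 97.3 CPM in the other fibroblast nuclei (log2 difference 2.01, adjusted p = 0.00178, edgeR). Within members it was at 9343 CPM in the 16 Schwann-like nuclei and 1.75 CPM in cluster 1. The difference was of like size but did not pass without the Scrublet doublets (log2 2.12, SE 0.71, adjusted p = 0.964, edgeR). The same held with cardiomyocyte RNA under 1% (log2 1.86, SE 0.59, adjusted p = 0.975, edgeR). Fam13a came next, at 80.5 and 158 CPM against 41.1 and 36.8 CPM in members (log2 difference 1.01, adjusted p = 0.0538, edgeR), and was at 2214 CPM in cluster 7. The other values were 0.79 for Gpc3, -1.63 for Grin3a, -1.38 for Bank1 and -1.39 for Frmd5, with adjusted p between 0.246 and 0.253 (edgeR). Without 1 library the count was between 10 and 22 with a larger fold and between 5 and 20 with a smaller one.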

How the data were processed

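Per the file headers, the deposited matrices hold raw UMI counts from Cell Ranger 6.0.1, and the submitters' processing notes name Seurat 4.0. The build behind the counts is not given in the sources used here, and gene positions are from GENCODE M21 (GRCm38). The members and gene lists were chosen with earlier results of these data known.

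Members followed the rule given above. Doublets were marked by Scrublet (scanpy 1.11.5) and kept, and left out as an alternative. Members were clustered by Leiden (leidenalg 0.10.2, resolution 0.5, 20 neighbours, 20 principal components, 2000 variable genes). Counts were summed per library, so the heart is the replicate. Low genes were dropped by edgeR's filterByExpr at a minimum count of 10. After TMM scaling, edgeR 4.0.16 (R 4.3.3) gave two-sided quasi-likelihood tests, with Benjamini-Hochberg adjustment over all genes tested. CPM values in the text are not TMM-scaled. A standard error is the size of the fold change (log2) divided by the square root of F. The interaction fit had the library as a block. The share test used 5 classes of nuclei and 1 dispersion. DESeq2 1.42.0 and limma 3.58.1 were alternatives. The fits were tested on simulated data.

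Named by the father were up to 12 called genes per direction without overlap between groups, by smallest adjusted p. With fewer than 3 called, the 5 smallest p were given as values. For the interaction, the 3 smallest p per direction were taken. For levels, the 30 genes outside the rule with the largest fold (20 CPM added, at least 50 UMIs, 4 of 4 libraries) and the 12 lowest could be named, and up to 6 per list. All called genes were named after their values were seen. The labels do not give the litters, so p-values measure the spread between these 4 hearts.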

Additional observations from a re-analysis of the deposited data

Results flagged for a closer look

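Cadm2 was the gene whose difference by the father was not the same in Pi16 Scara5 nuclei and in the other fibroblast nuclei, with a log2 difference of 2.01 in a test of the difference itself (edgeR, adjusted p = 0.00178). Its UMIs in members were 161 and 249 with injured fathers, against 70 and 10 with uninjured fathers. The Schwann- or glial-like cluster, where Cadm2 was at 9343 CPM, held 4 and 6 nuclei with injured fathers, against 4 and 2 with uninjured fathers. With the members of the fibroblast clusters alone, the log2 difference was 1.29 and did not pass (SE 0.63, adjusted p = 0.991, edgeR interaction).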

How the results depend on the processing

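The count of genes higher by the father was 20, and it was 118 with no filter on low counts, 10 without Scrublet doublets, 13 with set C without Pcsk6, 1 in the fibroblast clusters and 2 in cluster 1 alone. The last 3 alternatives were chosen after seeing the data. Of the 20, 7 were among the 10 without doublets and 6 among the 13 without Pcsk6. Of the 12 genes named by rule, Kcnc2, Rbm47, Nrg4, Slc36a2, Acsl1, Pcx and Plin1 did not pass without doublets. The count lower was 5 with no filter, 1 in cluster 1 and 0 to 15 without 1 library, and the count higher 1 to 88 without 1 library. RLE size factors, DESeq2, limma-voom, 3 or more set C UMIs, 1000 UMIs per nucleus and cardiomyocyte RNA under 1% stayed within 1.5 times of 20. With a replicate block the counts were 43 higher and 1 lower. The deviations of same-numbered libraries correlated at 0.0361 over 10805 genes, and the labels state no pairing. With 2 libraries a group, this value cannot show whether same-numbered libraries share a litter or a batch. For the interaction, the counts larger and smaller were 18 and 9 with no filter, 3 and 1 with 3 or more set C UMIs, 2 and 0 with 1000 UMIs per nucleus, 0 and 0 in the fibroblast clusters, 2 and 7 in cluster 1, and 1 and 1 with set C without Pcsk6. They were 10 to 22 and 5 to 20 without 1 library. The share's log2 fold change turned to 0.046 with set C without Pcsk6 and to 0.044 with fibroblast nuclei as denominator, and was -0.211 to 0.0388 without 1 library. Igfbp5 turned to -0.24 and the Fam13a interaction to -0.081 in cluster 1 alone. The cause of these shifts was not tested. Leaving out 1 library leaves a lone library that is assumed to vary like the others. Uninjured-father library 2 had the fewest member UMIs, which limits low-count genes.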
